A study of Mus musculus with 18 samples.

Results

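The E proteins Tcf3, Tcf4 and Tcf12 and their inhibitors Id1, Id2 and Id3 were followed through sorted mouse thymocytes. The 6 genes were chosen by name as a gene family, and all 6 were found among the 22619 genes of the deposited count table, of which 17934 had at least 1 read. The fourth inhibitor, Id4, had 0 reads in all 18 libraries. The cells came from wild-type thymi that had been transplanted and left for 28 days, and they were sorted at a pair of stages. DN3 cells are CD4 CD8 double-negative thymocytes at the stage where the T-cell receptor beta chain is rearranged, and DP cells are the later CD4 CD8 double-positive thymocytes. Each stage was taken under a condition that the labels call turnover, with 4 libraries, and under a condition that they call autonomy, with 5 libraries. In grafting studies the first term is used where incoming progenitors replace the resident thymocytes, and the second where the graft maintains itself without such input. The sources used here do not give host genotype, strain, sex or age. The labels leave unsaid whether the libraries of a group came from separate animals, and the turnover libraries come as an A and a B of each number (RP1140A and RP1140B, RP1141A and RP1141B). The p-values therefore measure only the spread between these libraries, which may be technical.

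E proteins are basic helix-loop-helix transcription factors that bind E-box sequences as dimers. Tcf3 encodes E2A, whose splice forms are E12 and E47, Tcf12 encodes HEB and Tcf4 encodes E2-2. E2A and HEB drive thymocytes through early T-cell development and hold cells at the checkpoints where receptor genes are rearranged. Id proteins have the dimerization domain but no DNA-binding domain, so an E protein paired with an Id protein cannot bind its site. In thymocytes Id3 is known to be induced by signals from the pre-T-cell receptor and T-cell receptor through ERK and Egr1. Id1 is a classical target of BMP and Smad signalling, and Id2 is known for its part in innate lymphoid and NK cells.

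E-box matches were looked for in the promoters, because the CANNTG letters are what E proteins recognise. Promoter sequence was taken from the RefSeq table of GRCm38.p6, which held 4 of the 6 genes, and only bases outside every annotated exon are shown. For Id2, Tcf3 and Tcf12 such bases remained, and each stretch held 1 E-box, set in capitals. The Id2 stretch, chr12:25096254-25096342 on the minus strand, lies inside the annotated span of the gene, in an intron of a longer transcript. The Tcf3 stretch, chr10:80433648-80433885, and the Tcf12 stretch, chr9:72111872-72112069, both on the minus strand, end at the annotated start of the gene.
Id2: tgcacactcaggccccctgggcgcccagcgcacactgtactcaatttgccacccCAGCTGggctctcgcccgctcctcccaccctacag
Tcf3: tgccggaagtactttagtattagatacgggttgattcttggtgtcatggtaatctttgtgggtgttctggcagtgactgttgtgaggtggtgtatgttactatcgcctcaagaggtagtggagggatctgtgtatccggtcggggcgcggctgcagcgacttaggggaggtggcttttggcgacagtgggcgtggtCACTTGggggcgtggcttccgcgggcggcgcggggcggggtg
Tcf12: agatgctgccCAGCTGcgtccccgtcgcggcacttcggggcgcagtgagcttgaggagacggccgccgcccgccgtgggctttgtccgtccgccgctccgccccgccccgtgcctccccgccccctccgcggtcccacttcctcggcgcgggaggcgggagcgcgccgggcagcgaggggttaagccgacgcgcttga
Id2 and Tcf12 carry the CAGCTG form and Tcf3 carries CACTTG. The patterns CANNTG and CAGCTG are the same on the opposite strand, so the search of the printed strand covered both. Among 32851 promoters in the table, windows of the same lengths and positions held a CANNTG match in 33% (89 bases, as for Id2), 64.7% (238 bases, as for Tcf3) and 58.7% (198 bases, as for Tcf12) of cases. The CAGCTG form was held by 4.23%, 12.3% and 10.2% of them. Unlike the stretches above, these windows were not limited to bases outside annotated exons. The letters GGCGCC, a GC-rich element of BMP-responsive promoters, were found in the Id2 stretch, and in 2.73% of windows of that length. A match describes the sequence and does not show that a protein binds there.

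Total counts per library ran from 5032273 to 24191044. Levels are given as CPM, read counts relative to the library's size after TMM scaling. The DP marker genes were led in DP by Cd8a, Cd8b1 and Arpp21, the last of which also had means of 845 and 575 CPM in DN3 turnover and autonomy. The list summed to 6495 to 7955 CPM in DP libraries and to 779 to 1011 CPM in 8 of the 9 DN3 libraries. The exception was DN3 turnover library RP1141B, with 2349 CPM, which held 135 CPM of Cd4 against 0.423 to 1.96 in the other 3 turnover libraries. Il2ra, the CD25 antigen that marks DN3 cells, was at 256 to 635 CPM in the DN3 libraries and at 1.24 to 41.3 CPM in the DP libraries. The whole DN3 list of 8 genes did not mark the stage. It summed to 1368 to 2193 CPM in DN3 turnover and 1123 to 2594 CPM in DN3 autonomy. The DP sums were 2096 to 2522 CPM in turnover and 2548 to 3074 CPM in autonomy. Rag2, a gene of that list, had means of 507 and 430 CPM in DN3 turnover and autonomy. In DP its means were 1227 and 1635 CPM. For genes whose change moved by a large amount without RP1141B, the value without it is given beside the result.

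**Figure D1:**
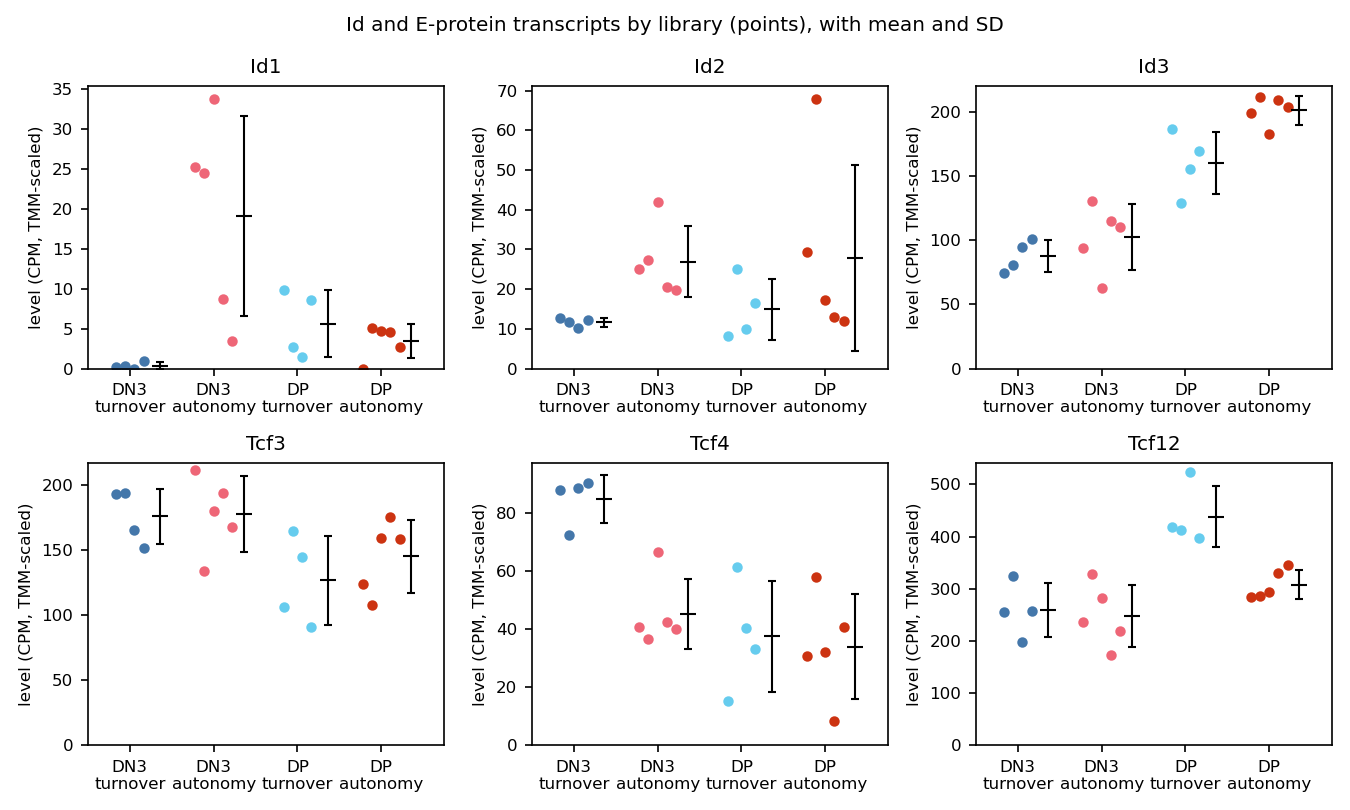
CPM (TMM-scaled, y axis, linear and starting at 0) of the 6 genes in each library (points) of the 4 groups, with the group mean and SD beside the points. Id1 sits between 0 and 0.986 CPM in DN3 turnover and between 3.48 and 33.7 CPM in DN3 autonomy, and Tcf4 sits above 72 CPM in DN3 turnover and below 67 CPM in every other group.

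In DN3 cells, 2 of the 3 inhibitors were higher in autonomy and 1 of the 3 E proteins was lower. Id1 rose 50.6-fold and Id2 2.29-fold, while Tcf4 was 1.89-fold lower. Id3, Tcf3 and Tcf12 did not pass the test. Among all 10766 genes tested in this comparison, 14.9% passed, 6.53% higher and 8.35% lower, by edgeR's quasi-likelihood test with Benjamini-Hochberg adjusted p under 0.05. The groups did not overlap for the same 3 genes, Id1, Id2 and Tcf4, and for 18.3% of all genes tested. Over the 6 genes the median log2 change was 0.11, and over all genes tested it was −0.05.

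Id1 lies on chromosome 2 from 152736251 to 152737410 on the plus strand of GRCm38. In DN3 turnover libraries RP1140A, RP1140B, RP1141A and RP1141B it was at 0.159, 0.349, 0 and 0.986 CPM, from 2, 5, 0 and 12 reads. In DN3 autonomy libraries RP1133, RP1134, RP1135, RP1137 and RP1138 it was at 25.2, 24.4, 33.7, 8.68 and 3.48 CPM. Every autonomy library was above every turnover library, and the autonomy libraries themselves spread widely, RP1137 and RP1138 being lowest. The means were 0.374 ± 0.433 (SD, n = 4) and 19.1 ± 12.6 CPM (SD, n = 5), a log2 change of 5.66 (SE 0.89, adjusted p = 0.00186 by edgeR). The turnover library with the most Id1 reads was RP1141B, the library that also held DP transcripts, and without it the change was 6.72. With limma voom the change was 5.78 and the adjusted p = 0.0691.

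Id2 lies on chromosome 12 from 25093799 to 25097140 on the minus strand, and its E-box stretch is the first of the sequences above. It was at 12.7, 11.6, 10.1 and 12.2 CPM in the 4 turnover libraries RP1140A, RP1140B, RP1141A and RP1141B. In autonomy libraries RP1133, RP1134, RP1135, RP1137 and RP1138 it was at 25.2, 27.2, 42.0, 20.5 and 19.8 CPM. The turnover libraries were within 3 CPM of each other and all lay below the lowest autonomy library, while RP1135 was the highest of the autonomy libraries for Id2 as it was for Id1. The means were 11.7 ± 1.11 and 26.9 ± 8.96 CPM, a log2 change of 1.20 (SE 0.27, adjusted p = 0.0110 by edgeR).

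Id3 lies on chromosome 4 from 136143497 to 136145755 on the plus strand and was the inhibitor with the most transcripts. Its levels were 74.3, 81.0, 94.4 and 101 CPM in turnover libraries RP1140A, RP1140B, RP1141A and RP1141B. In autonomy libraries RP1133, RP1134, RP1135, RP1137 and RP1138 they were 94.0, 130, 63.1, 115 and 111 CPM. The groups overlapped, and RP1135, the highest autonomy library for Id1 and Id2, was the lowest for Id3. The log2 change was 0.22, with a 95% interval from −0.23 to 0.66 (adjusted p = 0.498 by edgeR).

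Tcf4 lies on the plus strand of chromosome 18. It was at 88.0, 72.5, 88.8 and 90.5 CPM in turnover libraries RP1140A, RP1140B, RP1141A and RP1141B. In autonomy libraries RP1133, RP1134, RP1135, RP1137 and RP1138 it was at 40.7, 36.6, 66.5, 42.5 and 40.2 CPM. All 5 autonomy libraries were below the lowest turnover library, and RP1135 again stood above the other 4, which lay within 6 CPM of each other. The means were 84.9 ± 8.35 and 45.3 ± 12.1 CPM, a log2 change of −0.92 (SE 0.19, adjusted p = 0.00883 by edgeR). With A and B libraries of a number summed, Id2 and Tcf4 had edgeR adjusted p = 0.0808 and 0.0566, and in a fit of all 18 libraries 0.118 and 0.165, while Id1 passed in both (0.0145 and 0.00406).

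Tcf3 lies on chromosome 10 from 80409514 to 80433647 and Tcf12 on chromosome 9 from 71842688 to 72111871, both on the minus strand. Tcf3 was at 151 to 194 CPM in DN3 turnover and 134 to 211 CPM in DN3 autonomy, and the means were 176 ± 21.2 and 177 ± 29.1 CPM. The 95% interval of its log2 change ran from −0.33 to 0.33, around a value of −0.00131. Tcf12 was at 197 to 324 CPM in turnover and 173 to 329 CPM in autonomy, with a log2 change of −0.07 and an interval from −0.50 to 0.37. For both genes the range of the autonomy libraries covered that of the turnover libraries or nearly so. Counts per gene do not separate E12 from E47, or the long and short forms of HEB, so a shift between forms would not appear in these values.

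In the authors' deposited table for DN3, made with DESeq2, the same 3 genes had adjusted p under 0.05. In the authors' deposited table Id1 had a log2 change of 6.26 (DESeq2 adjusted p = 3.19e-16), Id2 of 1.24 (0.000129) and Tcf4 of −0.89 (0.000429).

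Several marker lists drawn up for other cell types had different sums in the DN3 groups. The macrophage and dendritic cell list, 9 genes, summed to 45.8 to 59.4 CPM in turnover and 8.63 to 21.5 CPM in autonomy. The plasmacytoid dendritic cell list, 7 genes, summed to 440 to 638 and 140 to 371 CPM, almost all from Bst2 and Ccr9. Mean Ccr9 was 281 CPM in turnover and 10.7 CPM in autonomy, and mean Bst2 was 245 and 219 CPM. DP turnover and DP autonomy held 2243 and 2247 CPM of Ccr9, so this gene is not particular to plasmacytoid dendritic cells. Siglech, a defining gene of plasmacytoid dendritic cells, a cell type that depends on Tcf4, was at 0 in every DN3 library but RP1141A, which held 0.423 CPM, and Klk1 was at 0 in DN3 turnover and DN3 autonomy. The B cell list, 6 genes, summed to 52.3 to 91.7 and 13.5 to 42.4 CPM, nearly all from Cd79b, with Ms4a1 and Pax5 at 0. Cd79b had means of 49.0 and 34.7 CPM in DP turnover and DP autonomy as well. The NK and innate lymphoid list, 11 genes, summed to 1233 to 1713 CPM in turnover and 1860 to 2526 CPM in autonomy, nearly all from Gzma. Of its 5 genes tested in DN3, 3 were higher in autonomy by edgeR, Gzma (means of 1313 and 2055 CPM), Tbx21 (1.17 and 6.01 CPM) and Nfil3 (3.58 and 11.7 CPM), and 1 was lower, Nkg7. In both groups the NK receptor gene Klrd1 was at 0, and Nkg7 was at 113 to 161 CPM in turnover and 3.11 to 65.5 CPM in autonomy, highest in RP1135. Gamma-delta T-cell markers, 7 genes, summed to 3421 to 4391 and 2060 to 3158 CPM. Thymic epithelial and fibroblast markers, 11 genes, summed to 98.0 to 127 and 38.6 to 92.7 CPM, with Krt5 and Pdgfra at 0, and endothelial markers, 7 genes, to 105 to 128 and 75.5 to 96.9 CPM. Erythroid and platelet markers, 8 genes, summed to at most 10.5 CPM in any library, and the DN3 list, 8 genes, to 1368 to 2193 CPM in turnover and 1123 to 2594 CPM in autonomy. The part of these transcripts in the Id1, Id2 and Tcf4 differences was not tested. In bulk samples, fewer cells that carry a transcript and less of it per cell cannot be told apart.

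**Figure D2:**
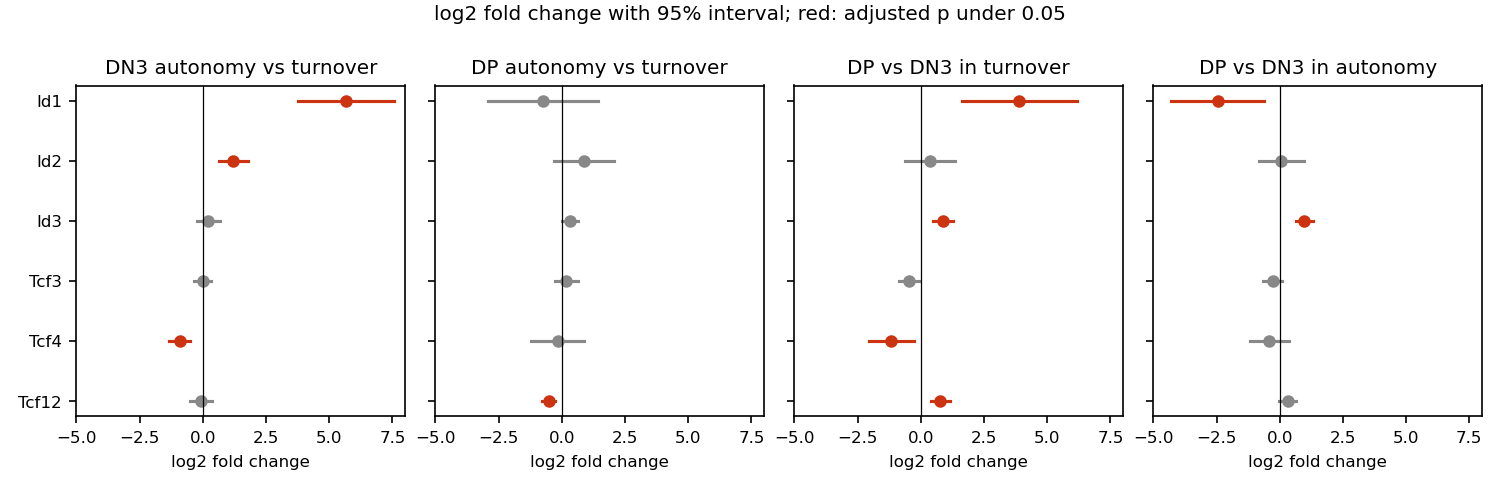
log2 fold change (x axis) of the 6 genes (rows) with its 95% interval in the 4 comparisons of groups, red where the edgeR adjusted p is under 0.05. Id1 is at 5.66 in DN3 and at −0.73 in DP for autonomy against turnover, and Id3 is at 0.88 and 0.98 for DP against DN3 in turnover and autonomy.

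In DP cells 1 of the 6 genes passed: Tcf12 was lower in autonomy, and 5 genes did not pass. Across the 10339 genes tested 1.72% passed, 0.861% higher and 0.861% lower. The groups did not overlap for Tcf12 alone among the 6, and for 8.11% of all genes tested. Tcf12 was at 418, 413, 525 and 397 CPM in DP turnover libraries RP1140A, RP1140B, RP1141A and RP1141B. In DP autonomy libraries RP1133, RP1135, RP1136, RP1137 and RP1138 it was at 285, 285, 294, 330 and 345 CPM. The autonomy libraries all lay below the lowest turnover library, and RP1141A stood above the other turnover libraries by over 100 CPM. The means were 438 ± 58.4 and 308 ± 27.8 CPM, and HEB transcripts fell by 0.52 on the log2 scale (SE 0.12, adjusted p = 0.0481 by edgeR). This call is close to the threshold: leaving out 1 library at a time ended it in 8 of 9 cases, with adjusted p from 0.0378 to 0.143, and the change ranged from −0.57 to −0.43. It was also lost with A and B libraries summed (adjusted p = 0.171), in a fit of all 18 libraries (0.103) and without the filter on low counts (0.0613), whereas the authors' deposited table gave −0.53 (adjusted p = 0.00105).

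In DP, the autonomy mean of Id2 leaned on library RP1135, and Tcf4 varied widely between the libraries of each group. Id2 was at 8.07, 25.1, 9.90 and 16.5 CPM in turnover libraries RP1140A, RP1140B, RP1141A and RP1141B. In autonomy libraries RP1133, RP1135, RP1136, RP1137 and RP1138 it was at 29.4, 68.0, 17.1, 12.9 and 12.0 CPM. RP1135 was more than double any other DP library, and its log2 change of 0.89 (95% interval −0.30 to 2.08, adjusted p = 0.456 by edgeR) became 0.23 without it. Tcf4 was at 15.1 to 61.6 CPM in turnover and 8.20 to 58.1 CPM in autonomy, and the highest library of each group was the one highest for Id2, RP1140B and RP1135. In DP autonomy, Siglech was at 30.3 CPM in RP1135 and at 0 in the other 4 libraries, and the macrophage and dendritic cell list summed to 159 CPM in RP1133, 151 CPM in RP1135 and 20.6 to 74.3 CPM in the others. In DP turnover that list summed to 8.90 to 40.0 CPM. Whether those transcripts and the Id2 and Tcf4 levels come from the same cells was not tested.

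Id1, Id3 and Tcf3 did not pass in DP cells. Id1 was at 9.80, 2.64, 1.47 and 8.61 CPM in DP turnover libraries RP1140A, RP1140B, RP1141A and RP1141B. In DP autonomy libraries RP1133, RP1135, RP1136, RP1137 and RP1138 it was at 0, 5.08, 4.68, 4.58 and 2.70 CPM. The groups overlapped, and the log2 change was −0.73 with an interval from −2.92 to 1.45, wide enough to hold large changes in either direction. Id3 was at 129 to 187 CPM in turnover and 183 to 212 CPM in autonomy, a log2 change of 0.31 (SE 0.14, unadjusted p = 0.0489, adjusted p = 0.291 by edgeR). Tcf3 was at 90.6 to 165 and 107 to 175 CPM, with a log2 change of 0.18 and an interval from −0.26 to 0.62.

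The autonomy effect itself differed between the stages for 1 of the 6 genes. For Id1 the effect in DP minus the effect in DN3 was −6.36 (SE 1.40, adjusted p = 0.0110 by edgeR), in a model of all 18 libraries in which 5.49% of 11521 genes passed, 2.88% with the higher effect in DP and 2.61% with the lower. Without DN3 turnover library RP1141B the difference was −7.43. Voom gave adjusted p = 0.0632 and the summed A and B libraries 0.0672. For the other 5 genes the differences were −0.31 (Id2), 0.10 (Id3), 0.18 (Tcf3), 0.76 (Tcf4) and −0.45 (Tcf12), and none passed. The Tcf4 interval ran from −0.41 to 1.93 and the Tcf12 interval from −0.96 to 0.06, so these data do not show that the Tcf4 fall is particular to DN3 cells or the Tcf12 fall to DP cells. This difference shares its libraries with the within-stage comparisons above.

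The step from DN3 to DP was then compared within each condition, which asks how the dimer partners change as thymocytes pass the beta checkpoint. In turnover, 3 of the 6 genes were higher in DP (Id1, Id3 and Tcf12), 1 was lower (Tcf4) and 2 did not pass, where 34.9% of 11521 genes tested passed, 15.8% higher and 19.1% lower. Id3 rose from 87.7 ± 12.3 to 160 ± 24.4 CPM (log2 change 0.88, SE 0.19, adjusted p = 0.00130 by edgeR), and the lowest DP library, at 129 CPM, was above the highest DN3 library, at 101 CPM. Tcf12 rose from 259 ± 52.0 to 438 ± 58.4 CPM (log2 change 0.77, SE 0.18, adjusted p = 0.00286 by edgeR), also without overlap. Id1 rose from 0.374 to 5.63 CPM (log2 change 3.90, SE 1.09, adjusted p = 0.00892 by edgeR). Without DN3 turnover library RP1141B the Id1 change was 5.003. Id1 lost the call with voom (0.0693) and with A and B libraries summed (0.0627).

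Tcf4 was lower in DP turnover than in DN3 turnover, at 37.5 ± 19.2 against 84.9 ± 8.35 CPM (log2 change −1.17, SE 0.42, adjusted p = 0.0367 by edgeR), and the groups did not overlap. In 9 of 18 fits that each left out 1 library the adjusted p was over 0.05, up to 0.116 without DP turnover library RP1140A, and it was 0.322 with A and B libraries summed. Tcf3 had a log2 change of −0.47 (adjusted p = 0.0763 by edgeR) and Id2 of 0.37 (0.601). Between these stages 4 of the 6 genes had no overlap between groups, against 34.8% of all genes tested.

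In autonomy, 1 gene was higher in DP, Id3, and 1 was lower, Id1, while 49.0% of 11521 genes passed, 23.7% higher and 25.2% lower. Id3 rose from 103 ± 25.7 to 201 ± 11.5 CPM (log2 change 0.98, SE 0.17, adjusted p = 8.14e-05 by edgeR), close to its change in turnover. The 5 DP libraries lay at 183 to 212 CPM and the 5 DN3 libraries at 63.1 to 130 CPM. Id1 fell from 19.1 to 3.41 CPM (log2 change −2.46, SE 0.88, adjusted p = 0.0264 by edgeR), so its order of the stages was the opposite of that in turnover. The Id1 groups overlapped, and the call was lost without DN3 autonomy library RP1133 (0.0559), RP1134 (0.0525) or RP1135 (0.0725), and with voom (0.0710). By edgeR Tcf12 (log2 0.32, adjusted p = 0.112), Tcf4 (−0.41, 0.393), Tcf3 (−0.28, 0.202) and Id2 (0.06, 0.927) did not pass. Only Id3 of the 6 had no overlap here, against 38.0% of all genes tested.

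The order of the 4 groups differed from gene to gene. Id3 ran upward from DN3 turnover through DN3 autonomy and DP turnover to DP autonomy. Each neighbouring pair of groups overlapped, DN3 autonomy (up to 130 CPM) and DP turnover (from 129 CPM) by a single library. Tcf12 was highest in DP turnover, above every library of the other groups, and DP autonomy overlapped both DN3 groups. Tcf4 was highest in DN3 turnover, and the other 3 groups overlapped. Id1 was highest in DN3 autonomy and lowest in DN3 turnover, with both DP groups between. Every neighbouring pair overlapped, DN3 turnover and DP autonomy through DP library RP1133, at 0. Tcf3 varied least, with group means of 127 to 177 CPM and overlap between all neighbours.

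**Figure D3:**
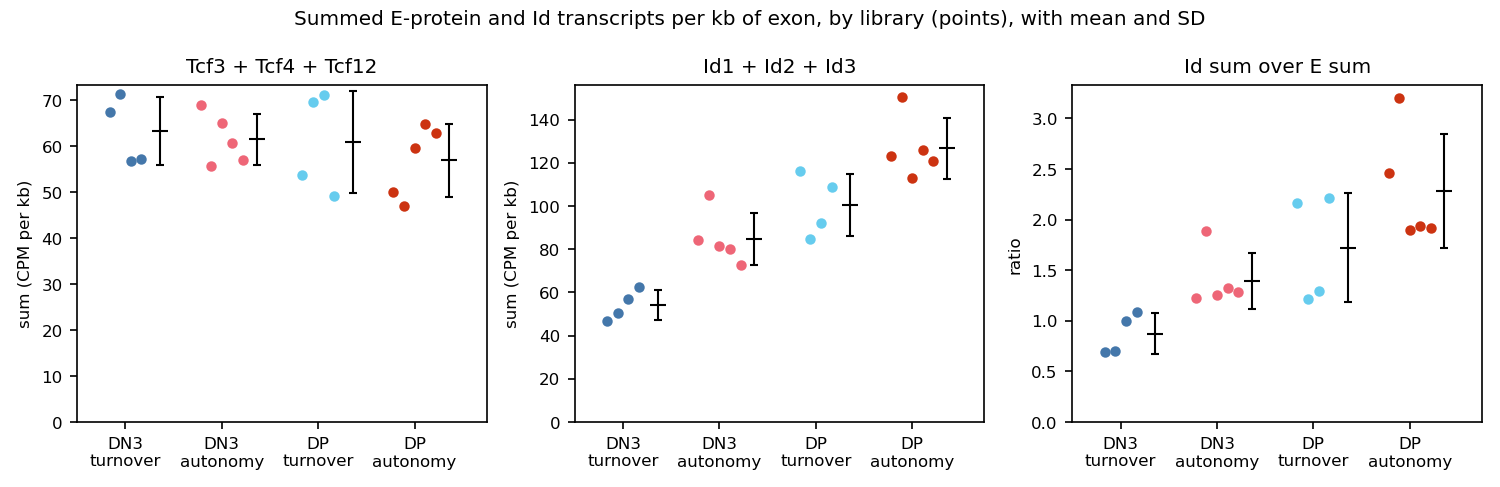
Summed transcripts per kilobase of exon (CPM per kb, y axis) of the 3 E-protein genes and the 3 Id genes, and their ratio, in each library (points) of the 4 groups, with mean and SD. The E-protein sums lie at 47.1 to 71.5 in all groups, while the Id sums lie at 46.8 to 62.4 in DN3 turnover and 113 to 151 in DP autonomy.

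Levels were compared between genes only per kilobase of exon, using the union of all annotated exons. The summed E-protein transcripts were 63.3 ± 7.35 CPM per kb in DN3 turnover, 61.5 ± 5.58 in DN3 autonomy, 60.9 ± 11.1 in DP turnover and 56.9 ± 7.89 in DP autonomy. The summed Id transcripts were 54.1 ± 6.91, 84.8 ± 12.1, 100 ± 14.5 and 127 ± 14.2 CPM per kb in the same order. The E-protein sums of the 4 groups overlapped, while every DN3 autonomy library was above every DN3 turnover library in Id transcripts. The ratio of Id to E-protein transcripts was 0.693 to 1.09 in DN3 turnover and 1.23 to 1.89 in DN3 autonomy, again without overlap. In DP it was 1.22 to 2.21 in turnover and 1.90 to 3.20 in autonomy, with overlap. These ratios are descriptions of transcript abundance with no test, and protein amounts were not measured.

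The make-up of the sums changed more than the E-protein total did. Id3 gave 90.5% ± 1.70 of the Id transcripts per kb in DN3 turnover and 67.9% ± 16.4 in DN3 autonomy, where Id1 gave 19.0% ± 12.6 and Id2 13.1% ± 4.52. In DP turnover and DP autonomy Id3 gave 89.0% ± 3.97 and 89.1% ± 6.12. Among E proteins, Tcf3 gave 68.8% ± 3.15 in DN3 turnover, 71.1% ± 7.55 in DN3 autonomy, 50.9% ± 5.52 in DP turnover and 62.6% ± 4.17 in DP autonomy. Tcf12 gave 46.9% ± 6.11 in DP turnover and 35.1% ± 2.89 in DP autonomy, and Tcf4 at most 5.77% in any library. These shares depend on the length used: Tcf12 has 15529 bp of exon union but a longest transcript of 6299 bp, and Tcf4 27382 and 8577 bp. With the longest transcript as the length, Tcf12 was above Tcf3 in DP turnover (69.5 against 42.9 CPM per kb). In DP autonomy it was close to Tcf3 (48.9 against 49.1), where the exon union puts Tcf3 first in both groups. With that length the mean Id to E-protein ratio was 1.06 in place of 1.39 in DN3 autonomy and 0.690 in place of 0.872 in DN3 turnover. The libraries then ran from 0.878 to 1.34 in DN3 autonomy and from 0.554 to 0.840 in DN3 turnover, still without overlap.

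The genes around the E and Id proteins were taken from 6 lists drawn up for this purpose. Of 15 dimer partners and cofactors, 8 could be tested in DN3 cells, and 0 were higher and 2 lower in autonomy, against 6.53% higher and 8.35% lower of all genes tested, with a list median of −0.31. Crebbp, a histone acetyltransferase that E proteins recruit, fell from 75.0 to 36.2 CPM (log2 change −1.06, SE 0.19, adjusted p = 0.00411 by edgeR). Ldb1, an adaptor that joins LIM-only proteins to E-protein complexes, fell from 46.2 to 25.2 CPM (log2 change −0.88, SE 0.23, adjusted p = 0.0218 by edgeR). Ldb1 lost the call in 4 of 9 fits that left out 1 library, without turnover library RP1140B (0.0633) or RP1141A (0.0523) or autonomy library RP1137 (0.0622) or RP1138 (0.0523). In DP cells 0 of 7 tested partners passed by edgeR, with 2 at an unadjusted p under 0.05. For Crebbp the effect in DP minus that in DN3 was 0.998 (adjusted p = 0.0453 by edgeR), a call that was lost in 16 of 18 fits that left out 1 library, without the filter (0.0618) and with A and B libraries summed (0.267).

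Of the genes that E proteins are known to activate in thymocytes, 15 were tested in DN3. With autonomy 0 were higher, 2 were lower and 13 did not pass, with a list median of −0.13, and the share that passed was close to the 14.9% of all genes tested. Dntt, which encodes terminal deoxynucleotidyl transferase, fell from 3748 to 1945 CPM (log2 change −0.96, SE 0.17, adjusted p = 0.00367 by edgeR). Cdkn1a, the cyclin-dependent kinase inhibitor p21, fell from 65.5 to 22.2 CPM (log2 change −1.57, SE 0.25, adjusted p = 0.00228 by edgeR), though in a fit of all 18 libraries its adjusted p was 0.172. Ptcra, the pre-T-cell receptor alpha chain and a direct E-protein target, was at 250, 221, 288 and 299 CPM in DN3 turnover libraries RP1140A, RP1140B, RP1141A and RP1141B. In DN3 autonomy libraries RP1133, RP1134, RP1135, RP1137 and RP1138 it was at 414, 442, 592, 342 and 282 CPM. Of the autonomy libraries only RP1138 reached into the turnover range, and the log2 change of 0.64 had adjusted p = 0.0521 by edgeR, 0.0270 to 0.131 with 1 library left out. Ptcra passed with RLE size factors (0.0483), without the filter (0.0416) and with DESeq2 (0.0146). Rag1 and Rag2, the recombinase genes, had log2 changes of −0.11 and −0.25 that did not pass, and 0.26 and 0.0830 without library RP1141B. Cd4 had −3.21 (adjusted p = 0.101 by edgeR) with library RP1141B and 1.65 without it.

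In DP cells 14 of these targets were tested, 0 were higher and 1 was lower, against 0.861% in each direction of all genes tested. With DESeq2 3 were higher, with voom 2 and with all 18 libraries in the fit 1. Dntt fell from 3529 to 2719 CPM (log2 change −0.39, SE 0.07, adjusted p = 0.0163 by edgeR). Leaving out turnover library RP1140B or RP1141B ended this call (0.0532 in each case), and it was also lost with A and B libraries summed (0.121), in a fit of all 18 libraries (0.113) and without the filter (0.0622). Ptcra was at 42.9 CPM in turnover and 82.1 CPM in autonomy (log2 0.92, adjusted p = 0.0835 by edgeR), with no overlap between the groups, and it passed with DESeq2 (0.0143) and with all 18 libraries in the fit (0.0335). Rag1, Rag2 and Cd4 had log2 changes of 0.11, 0.40 and 0.02, and of these Rag2 passed with DESeq2 (0.0253) and voom (0.0274).

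Between the stages these targets moved in both directions. In turnover 7 of 15 were higher in DP and 5 lower, where 15.8% and 19.1% of all genes tested were, and in autonomy 8 and 5, where 23.7% and 25.2% were. Rag1 (log2 2.73), Rag2 (1.28) and Cd4 (4.51) rose from DN3 to DP in turnover, and the values in autonomy were 2.96, 1.94 and 7.74. Ptcra (−2.62), Notch1 (−3.08), Notch3 (−3.37) and Cdkn1a (−5.29) fell in turnover, and Ptcra (−2.33), Notch1 (−3.00) and Cdkn1a (−5.23) in autonomy. Notch3 was also lower in DP in autonomy, with means of 47.5 CPM in DN3 and 14.7 CPM in DP and no overlap. Cd4 in the turnover comparison was at 9.39 without DN3 library RP1141B.

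Few of the genes that E proteins are known to restrain could be tested. Of 8 such genes 4 were tested in DN3, and 0 were higher and 1 lower in autonomy: Cdk6, the G1 cyclin-dependent kinase, fell from 289 to 132 CPM (log2 change −1.14, SE 0.32, adjusted p = 0.0333 by edgeR). Leaving out 1 library ended that call in 5 of 9 cases, with adjusted p up to 0.109. Gata3, a T-lineage factor, was at 372 CPM in turnover and 216 CPM in autonomy (log2 −0.79, SE 0.26, adjusted p = 0.0580 by edgeR), and it passed with DESeq2 (0.0206), voom (0.0333), in a fit of all 18 libraries (0.0355) and without the filter (0.0465). In DP 0 of 4 passed by edgeR, with 0 at an unadjusted p under 0.05.

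**Figure D4:**
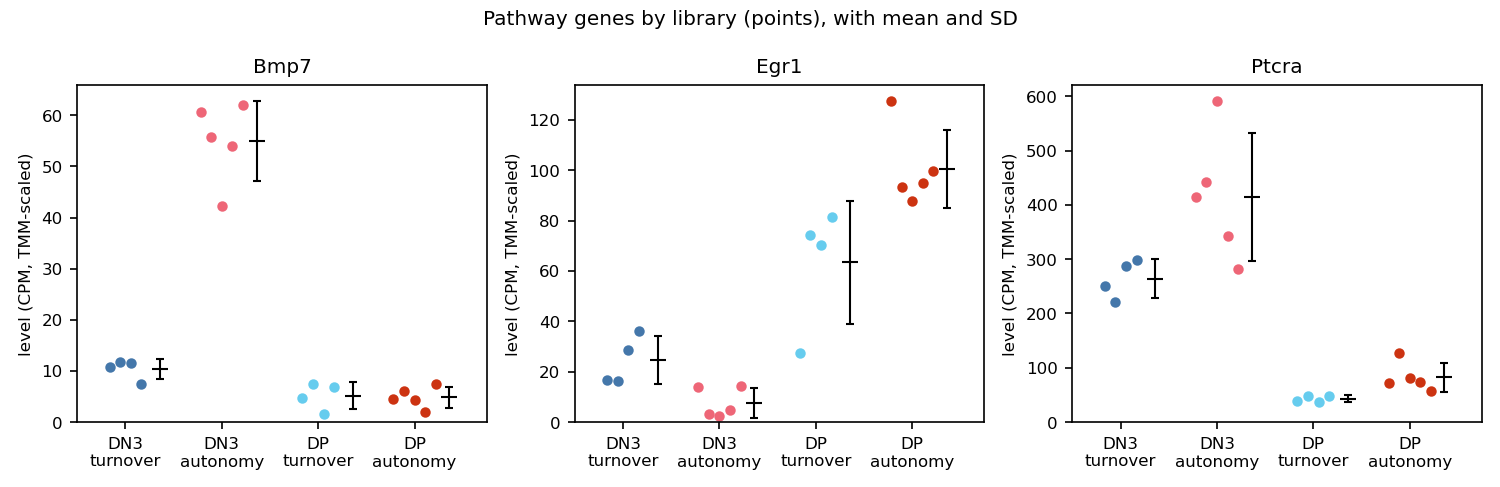
CPM (TMM-scaled, y axis, linear and starting at 0) of Bmp7, Egr1 and Ptcra in each library (points) of the 4 groups, with the group mean and SD. Bmp7 is at 42.2 to 62.0 CPM in DN3 autonomy and at most 11.7 CPM in every other group, and Egr1 is lowest in DN3 autonomy and highest in DP autonomy.

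Upstream of the Id genes, the BMP and TGF-beta list held 17 genes tested in DN3, of which 1 was higher in autonomy, 2 were lower and 14 did not pass, a share called that was close to the 14.9% of all genes tested. The gene that rose was Bmp7, a BMP ligand. It was at 10.8, 11.7, 11.5 and 7.48 CPM in DN3 turnover libraries RP1140A, RP1140B, RP1141A and RP1141B. In DN3 autonomy libraries RP1133, RP1134, RP1135, RP1137 and RP1138 it was at 60.7, 55.7, 42.2, 54.1 and 62.0 CPM. The groups were far apart and RP1135, the library highest for Id1, was the lowest of the autonomy libraries for Bmp7. The log2 change was 2.39 (SE 0.22, adjusted p = 9.11e-05 by edgeR), and it passed without each library in turn (2.27 to 2.47). In DP, Bmp7 was at 1.65 to 7.45 CPM in turnover and 1.88 to 7.35 CPM in autonomy, and the difference of the effects was −2.52 (adjusted p = 0.0116 by edgeR), which lost the call with A and B libraries summed (0.0547).

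The 2 lower genes of this list were under 10 CPM in both groups and, being outside the naming rule, were chosen after their values were seen. They were Bambi, a decoy receptor that blocks BMP and TGF-beta signals, with means of 8.23 and 0.900 CPM (log2 −3.14, adjusted p = 0.0129 by edgeR), and Smad7, an inhibitory Smad, with 2.12 and 0.274 CPM (log2 −2.95, adjusted p = 0.0415 by edgeR). The list had 0 lower genes with A and B libraries summed and with all 18 libraries in the fit, and 2 in only 2 of 9 fits that left out 1 library. The signal-carrying Smads of the BMP arm, Smad1 (20.5 and 12.4 CPM) and Smad5 (16.8 and 16.6 CPM), did not pass. In DP 0 of 15 tested genes passed by edgeR, with 1 at an unadjusted p under 0.05.

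The T-cell receptor, ERK and Egr arm upstream of Id3 had 12 genes tested in DN3, 0 of them higher and 1 lower in autonomy, against 6.53% and 8.35% of all genes tested, with a list median of −0.43. Egr1, the immediate early factor that induces Id3 at the beta checkpoint, was at 16.9, 16.3, 28.8 and 36.2 CPM in DN3 turnover libraries RP1140A, RP1140B, RP1141A and RP1141B. In DN3 autonomy libraries RP1133, RP1134, RP1135, RP1137 and RP1138 it was at 13.8, 3.11, 2.19, 4.93 and 14.2 CPM. The groups did not overlap, though RP1133 and RP1138 came within 3 CPM of the turnover libraries. The fall of 1.68 on the log2 scale (SE 0.51, adjusted p = 0.0420 by edgeR) lost the call in 7 of 9 fits that left out 1 library and with A and B libraries summed (0.146). In DP cells 0 of 11 genes passed by edgeR, with 3 at an unadjusted p under 0.05. Egr1 there was at 27.4 to 81.4 CPM in turnover and 87.6 to 127 CPM in autonomy, without overlap (log2 0.65, adjusted p = 0.254 by edgeR), and the effect in DP minus that in DN3 was 2.32 (adjusted p = 0.0337 by edgeR). That call was lost in 7 of 18 fits that left out 1 library and with A and B libraries summed (0.202).

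From DN3 to DP in turnover, 5 of 13 genes of this arm were higher in DP, 1 was lower and 7 did not pass, against 15.8% higher and 19.1% lower of all genes tested. With A and B libraries summed 2 were higher, and with 1 library left out at least 3. In autonomy 8 of 13 were higher and 0 lower, against 23.7% and 25.2%. Egr1 rose by log2 1.38 in turnover (SE 0.46, adjusted p = 0.0263 by edgeR) and 3.70 in autonomy (SE 0.46, adjusted p = 1.47e-06 by edgeR). Dusp6, a phosphatase induced by ERK signalling, rose by log2 3.14 and 4.73, and by 4.16 in turnover without DN3 library RP1141B. Nfatc3, a calcineurin-dependent factor, rose by 2.70 in turnover, and Nab2, a corepressor of Egr proteins, by 4.36 in autonomy. The turnover call of Egr1 was lost in 5 of 18 fits that left out 1 library and with A and B libraries summed (0.109).

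Of the ubiquitin enzymes that act on E and Id proteins, 5 were tested in DN3 and 0 passed by edgeR, with 2 at an unadjusted p under 0.05. With RLE size factors, without the filter and with voom 1 was higher, and with DESeq2 2 were. Usp1, which removes ubiquitin from Id proteins, was at 203 and 307 CPM (log2 0.59, adjusted p = 0.0516 by edgeR), with no overlap between the groups. In DP 1 of 5 was higher, Skp1a, an SCF ligase subunit (858 to 1231 CPM, log2 0.51, SE 0.11, adjusted p = 0.0406 by edgeR), a call lost in 6 of 9 fits that left out 1 library. From DN3 to DP, Cul1, the scaffold of the same ligase, fell by 0.83 on the log2 scale in turnover and 1.26 in autonomy. The turnover call was lost with A and B libraries summed (edgeR adjusted p = 0.0608).

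Across the 18 libraries, the transcripts most like each member were found by Pearson correlation of log2(CPM + 1) among 10892 genes. The coefficients describe libraries that share stage and condition, so they carry no p-value. Id3 was closest to Cd6 (r = 0.940) and Cd5 (0.938), receptors that restrain T-cell receptor signals, and to Twf2 (0.933). Tcf12 was closest to Smg1 (0.921), Usp34 (0.920) and Aff4 (0.904), and Tcf3 to Ubfd1 (0.870), Sf3a1 (0.854) and Cdc42ep4 (0.851). Tcf4 was closest to Cyth4 (0.917), Ebpl (0.822) and Nfe2 (0.820). Id1 was closest to Myh10 (0.858), Arsi (0.782) and Kcnj8 (0.773), and Id2 to Washc3 (0.782), Hdgfl3 (0.771) and Mitd1 (0.763). Id2 had the lowest leading coefficient of the 6.

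Among the members themselves, deviations from the group means were compared over the same 18 libraries. Id2 and Tcf4 deviated together (r = 0.655 within groups). RP1135 was the highest autonomy library for both genes at both stages and RP1140B the highest DP turnover library, but in DN3 turnover RP1140B was the lowest for Tcf4. Id3 and Tcf3 deviated in opposite directions (−0.509 within groups). The other pairs lay between −0.405 and 0.281.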

How the data were processed

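RNA was sequenced from 18 libraries of sorted mouse thymocytes: 4 DN3 turnover, 5 DN3 autonomy, 4 DP turnover and 5 DP autonomy, grouped by the labels. The authors deposited raw counts per Ensembl gene, made with featureCounts per the file headers. The submitters' processing notes name FastQC, HISAT2, featureCounts and DESeq2 and the builds mm10 and GRCm38, without version numbers. Whether reads were counted by strand was not stated, so overlapping and antisense genes may share reads. The authors' 2 deposited DESeq2 tables (22566 genes) hold a mean signal of scaled counts, a log2 fold change with its standard error, the Wald score, and p-value columns. Only their log2 change and adjusted p-value are printed, and those sentences name the table.

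Counts were tested with edgeR 4.0.16 in R 4.3.3 (quasi-likelihood, TMM scaling, filterByExpr, Benjamini-Hochberg over all genes tested, threshold 0.05). Each stage was fitted alone for autonomy against turnover, with log2 changes given as autonomy minus turnover. All 18 libraries entered the comparisons of DP with DN3, as DP minus DN3, and the difference of the autonomy effects. Gene symbols came from the deposited tables, and exon lengths and positions from GENCODE M21, in which 22601 IDs matched. Levels are descriptions, and their precision is limited by depth: 2 to 12 reads carried Id1 in the DN3 turnover libraries in which it was found. The main edgeR fit of each comparison was also run on simulated counts, drawn as independent libraries. The alternative fits were not.

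The alternatives were RLE size factors, no filter on low counts, DESeq2 1.42.0, limma 3.58.1 voom, A and B libraries summed, other sets of samples in the fit, a replicate block, each library left out in turn, CPM on total counts, and the longest transcript as gene length. Summing A and B left fewer turnover libraries at each stage, 1 for each RP number, and a test on fewer libraries has less power. The 6 members, the 6 pathway lists and the 10 marker lists were chosen with earlier results of these data known. Beside the members, the text names up to 3 genes per direction, list and comparison, taking the largest changes of genes that passed the test and averaged 10 CPM or more in the group where they were higher. Ptcra, Rag1, Rag2, Cd4, Cd8a, Gata3, Egr1 and Id4 were named whether or not they passed, though not in every comparison. The 3 transcripts most like each member on the log2(CPM + 1) scale were named as well. That likeness search skipped predicted genes and segments of the T-cell receptor. 1 gene that this rule would name is not reported here.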

Additional observations from a re-analysis of the deposited data

Results flagged for a closer look

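Of 28 groups of library values tested with Dixon's criterion, 4 held a library that stood apart from the rest, and chance alone marks about 1 in 20 groups. Tcf4 in DN3 turnover was at 72.5 CPM in RP1140B, below the other 3 libraries. Tcf4 in DN3 autonomy was at 66.5 CPM in RP1135, above the other 4. Tcf12 in DP turnover was at 525 CPM in RP1141A, above the other 3. The ratio of Id to E-protein transcripts per kilobase in DN3 autonomy was 1.89 in RP1134, above the other 4.

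The autonomy effect differed between DP and DN3 cells for 4 of the named genes, by edgeR's test of the difference itself in a model of all 18 libraries. On the log2 scale the effect in DP minus the effect in DN3 was −6.36 for Id1, 0.998 for Crebbp, 2.32 for Egr1 and −2.52 for Bmp7. With A and B libraries summed none of the 4 passed by edgeR (adjusted p = 0.0672, 0.267, 0.202 and 0.0547), and with the replicate block Id1 (0.0676), Crebbp (0.201) and Bmp7 (0.0954) did not.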

How the results depend on the processing

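Where a value changed with the processing, the cause was not tested. The DN3 changes of Id1, Id2 and Tcf4 kept their direction under each alternative run. The log2 change of Tcf3 in DN3, −0.00131, turned to 0.0118 with RLE size factors, 0.0170 without the filter, 0.0119 with DESeq2 and 0.00941 in the fit of all 18 libraries. With voom, Cd4 in DN3 was at 0.0110 in place of −3.21, and Cd8a in DN3 at 2.03 in place of −0.80. Voom also gave −2.16 in place of 0.72 for the Cd8a difference of effects. For Id2 in DP against DN3 in autonomy it gave −0.29 in place of 0.06. Without turnover library RP1141B the main fit gave 3.37 for Cd8a in DN3 and −3.47 for its difference of effects. With A and B libraries summed, Cd4 in DP was at −0.0281. With the RP number as a replicate block, the Cd8a difference of effects was −2.38 and Id2 in DP against DN3 in autonomy −0.11.

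Counts of calls moved more. Members past the threshold in DN3 numbered 3, and 1 with A and B libraries summed or all 18 libraries in the fit. In DP they numbered 1, and 0 with no filter, with A and B libraries summed and with all 18 libraries. For the difference of effects they numbered 1, and 0 with voom, with A and B libraries summed and with the replicate block (Id1 adjusted p = 0.0676 by edgeR). For DP against DN3 they numbered 2 in autonomy, and 1 with voom and with the replicate block, in which Id1 had an edgeR adjusted p = 0.138, and they numbered 4 in turnover and 2 with A and B libraries summed. Among all genes tested, DN3 gave 1602 calls, 507 with A and B libraries summed and 1006 with all 18 libraries. DP gave 178, against 736 with DESeq2, 434 with voom, 16 with A and B libraries summed and 279 with all 18 libraries. The difference of effects gave 633, against 1037 with DESeq2, 145 with A and B libraries summed and 291 with the replicate block. DP against DN3 in turnover gave 4021, and 2170 with A and B libraries summed. The mean Id to E-protein ratio in DN3 autonomy was 1.39, and 1.06 with the longest transcript as length. In DN3 turnover the same means were 0.872 and 0.690.

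Leaving out 1 library at a time gave 811 (without turnover RP1140A) to 1784 calls in DN3 and 33 (without turnover RP1140B) to 252 in DP, 0 to 1 members in DP, and 1 to 2 members for DP against DN3 in autonomy. In DN3 the log2 change ranged from −0.0659 to 0.0876 for Tcf3, −0.19 to 0.0554 for Tcf12, −0.43 to 0.0830 for Rag2, −0.31 to 0.26 for Rag1, −3.66 to 1.65 for Cd4 and −1.20 to 3.37 for Cd8a. In DP it ranged from −0.44 to 0.18 for Tcf4 and −0.0652 to 0.0861 for Cd4, and for Id2 in DP against DN3 in autonomy from −0.59 to 0.27. The difference of effects ranged from −0.96 to 0.0811 for Id2, −0.0339 to 0.19 for Id3, −0.15 to 0.41 for Rag1, −1.63 to 3.70 for Cd4 and −3.47 to 1.12 for Cd8a. In DN3 the highest values of Rag1, Rag2, Cd4 and Cd8a came without turnover library RP1141B, the positive Tcf4 values in DP without turnover library RP1140B or autonomy library RP1137 (0.0967), the positive Id2 difference of effects without DP turnover library RP1140B, and the lowest Id2 value in DP against DN3 without DP autonomy library RP1135.

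DN3 and DP libraries with the same replicate number showed little likeness in their deviations from the group means. For the 8 shared numbers, these deviations correlated at −0.0342 to 0.0586, 0 of them over 0.1. In 2 cases a library was closest to its own number. The labels do not say whether libraries with the same number came from the same animal, and this was not tested. The correlations cannot decide it, because cells of the same animal at different stages need not deviate alike.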
